A study of Mus musculus with 10 samples.

Results

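The genes of the ubiquitin-activating (E1) and ubiquitin-conjugating (E2) enzymes were followed across 10 Affymetrix mouse expression arrays. Members were all genes whose platform symbol begins with Ube2, or is Uba followed by digits alone. Each gene was read from its probe set with the highest mean, among probe sets with a single gene symbol. This gave 36 members of 18194 genes in all, 3 of them E1 genes (Uba3, Uba6 and Uba7). The symbol rule also took in Ube2d-ps, which RefSeq lists as a non-coding RNA, and Ube2cbp, whose product (also named Ube3d) is described as a ligase. Ube2l3 was left out because its 4 probe sets carry several gene symbols.

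All arrays are of NG4, a mouse embryonic stem cell line. Cells of every group were transfected with siRNA as they were plated, kept with retinoic acid to start differentiation, and collected 48 h after transfection. The 5 groups of 2 arrays received siNonTarget (the control siRNA), siSox17 (against an endoderm transcription factor), siFbxw7 (against a substrate receptor of an SCF ubiquitin ligase), siSocs3 (against a STAT3-induced protein that dampens cytokine receptor signalling) or siRnf31 (against a ubiquitin ligase of the linear chain complex). No member is a target of these siRNAs. The labels do not say whether replicate arrays came from separate cultures, so the p-values measure only the spread between these arrays, which may be technical.

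Ubiquitin is passed along a chain of enzymes. An E1 activates it with ATP and hands it to the active-site cysteine of an E2. An E3 ligase such as the Fbxw7 complex brings the charged E2 to a substrate. The E2 often sets whether a single ubiquitin or a chain is made and which lysine links the chain, so different E2s serve protein degradation, DNA repair, mitosis and signalling. Related modifiers have E1s and E2s of their own: Uba3 and Ube2f act on NEDD8, and Uba7 and Ube2l6 on ISG15. Embryonic stem cells divide quickly and depend on ubiquitin-mediated turnover of cell cycle proteins and of transcription factors that hold the undifferentiated state.

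In the arrays labelled siSocs3, 4 members fell against siNonTarget and 0 rose: Ube2b, Ube2d1, Ube2e1 and Ube2e2. That is 11.1% of the members, beside 9.26% of all genes called in either direction by the same test (limma, adjusted p under 0.05), 5.66% lower and 3.59% higher, so the share is near the background. Ube2b encodes RAD6B, the E2 of post-replication repair and histone H2B ubiquitination, and the other 3 encode E2s that serve many ligases. Their levels were 0.631 to 0.645 times those of the control. Before their levels, the 250 bases upstream of the first RefSeq start listed for each gene are shown (assembly GRCm38.p6, 5′ to 3′ on the gene's strand), because these are the members that fell, followed by Ube2a, the RAD6A paralog of Ube2b, whose estimate lay on the other side of 0. The windows are chr11:52000787-52001036 (minus strand), chr10:71285263-71285512 (minus), chr14:18331845-18332094 (minus), chr14:18893772-18894021 (minus) and chrX:36874045-36874294 (plus). Capitals mark matches to any of 7 motifs searched on both strands: GGGCGG (the GC box), the CCAAT box, TTCNNNGAA (the STAT motif), AGGTCA (the motif of many nuclear receptors), CACGTG (the E-box) and TTTGAA (CHR), plus the NRF1 motif by name. In Ube2b the AGGTCA match overlaps the first CACGTG.
Ube2b: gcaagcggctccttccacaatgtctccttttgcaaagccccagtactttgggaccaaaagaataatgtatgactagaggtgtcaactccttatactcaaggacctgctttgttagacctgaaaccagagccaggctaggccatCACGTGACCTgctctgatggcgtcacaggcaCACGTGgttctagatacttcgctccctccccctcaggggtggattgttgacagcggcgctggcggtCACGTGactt
Ube2d1: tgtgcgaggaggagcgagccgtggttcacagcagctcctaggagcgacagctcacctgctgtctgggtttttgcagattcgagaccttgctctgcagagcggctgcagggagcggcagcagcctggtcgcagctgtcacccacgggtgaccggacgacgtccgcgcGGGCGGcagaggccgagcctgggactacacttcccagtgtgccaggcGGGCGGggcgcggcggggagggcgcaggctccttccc
Ube2e1: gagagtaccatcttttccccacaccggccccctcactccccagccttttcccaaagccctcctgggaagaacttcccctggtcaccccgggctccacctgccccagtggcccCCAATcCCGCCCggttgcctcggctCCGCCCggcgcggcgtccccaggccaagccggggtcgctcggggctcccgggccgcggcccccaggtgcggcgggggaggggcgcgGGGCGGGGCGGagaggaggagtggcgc
Ube2e2: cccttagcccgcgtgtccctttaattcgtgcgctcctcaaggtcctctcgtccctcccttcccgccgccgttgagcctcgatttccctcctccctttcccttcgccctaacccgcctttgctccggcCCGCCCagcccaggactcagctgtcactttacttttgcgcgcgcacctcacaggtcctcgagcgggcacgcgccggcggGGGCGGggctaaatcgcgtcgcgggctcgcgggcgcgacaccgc
Ube2a: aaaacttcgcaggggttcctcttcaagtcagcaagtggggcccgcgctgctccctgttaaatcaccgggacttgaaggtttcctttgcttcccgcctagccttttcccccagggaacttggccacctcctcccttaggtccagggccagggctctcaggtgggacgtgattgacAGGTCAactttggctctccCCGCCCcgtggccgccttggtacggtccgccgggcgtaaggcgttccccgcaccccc

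The windows of Ube2d1, Ube2e1 and Ube2e2 held 2, 4 and 2 GC boxes, and that of Ube2b held 0. Ube2b instead held 3 copies of CACGTG, beginning 107, 76 and 10 bases before the start. At least 1 copy of this motif stood in 6.05% of 27025 promoters of the same length, and at least 3 copies in 0.0666%. The cut of 3 was taken from Ube2b itself after 7 motifs were searched, so that share is no test. Among the 29 members with a promoter, 2 held the motif (Ube2b and Ube2q1). Ube2a held 1 GC box and 1 copy of AGGTCA, which Ube2b also held once. The STAT letters were found in 0 of these 5 windows and in 7.18% of all promoters. Promoters were found for 29 members, and 19 of them held a GC box, against 32.9% of all promoters, while 7 held a CCAAT box, against 34.5%. The median GC content was 65.2% in the members' windows and 52.0% in all promoters, and its part in these matches was not tested. A match describes letters in a window and not a bound site, and no binding was measured here.

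Ube2b read 10.83 and 10.94 on the siNonTarget arrays, on the log2 intensity scale. It read 10.18 and 10.29 on the siSocs3 arrays, 10.54 and 10.48 on siSox17, 10.66 and 10.45 on siFbxw7, and 10.59 and 10.83 on siRnf31. The siSocs3 arrays were the lowest of all 10, and siRnf31 alone overlapped the controls. Ube2b fell by 0.65 ± 0.12 in siSocs3 (SE, n = 2 arrays per group, limma adjusted p = 0.0162), a level 0.638 times that of the control. Its estimates were −0.38 ± 0.12 in siSox17 (limma adjusted p = 0.178), −0.33 ± 0.12 in siFbxw7 (0.752) and −0.18 ± 0.12 in siRnf31 (0.787), none past the threshold of 0.05.

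Ube2d1 belongs to the Ube2d family, E2s that start chains for many ligases. It read 8.79 and 8.83 on the siNonTarget arrays, 8.0 and 8.29 on siSocs3, 8.24 and 8.42 on siSox17, 8.66 and 8.37 on siFbxw7, and 8.40 and 8.71 on siRnf31. All 8 arrays of targeted siRNA lay below both controls, and the siSocs3 and siSox17 arrays overlapped. It fell by 0.66 ± 0.15 in siSocs3 (limma adjusted p = 0.0312), and was −0.48 ± 0.15 in siSox17 (0.177), −0.30 ± 0.15 in siFbxw7 (0.772) and −0.26 ± 0.15 in siRnf31 (0.778).

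Ube2e1 and Ube2e2 encode a pair of close relatives with an extended N-terminus. The level of Ube2e1 was 11.40 and 11.37 in siNonTarget, 10.68 and 10.83 in siSocs3, 10.88 and 11.07 in siSox17, 11.34 and 11.13 in siFbxw7, and 11.04 and 11.32 in siRnf31. The level of Ube2e2 was 7.99 and 8.10 in siNonTarget, 7.20 and 7.58 in siSocs3, 7.82 and 7.61 in siSox17, 7.94 and 7.59 in siFbxw7, and 7.84 and 7.98 in siRnf31. For both genes every array of targeted siRNA lay below both controls and the siSocs3 arrays were the lowest. Ube2e1 fell by 0.63 ± 0.13 in siSocs3 (limma adjusted p = 0.0232) and was −0.41 ± 0.13 in siSox17 (0.178). Ube2e2 fell by 0.66 ± 0.16 in siSocs3 (limma adjusted p = 0.0388) and was −0.34 ± 0.16 in siSox17 (0.331). The third member of the family, Ube2e3, was −0.36 ± 0.11 in siSocs3 and did not pass (limma adjusted p = 0.0742), with 11.46 and 11.61 against 11.87 and 11.92 in siNonTarget. The comparisons of the 4 siRNAs with siNonTarget share the control arrays, so a low or high control moves all of them together.

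**Figure D1:**
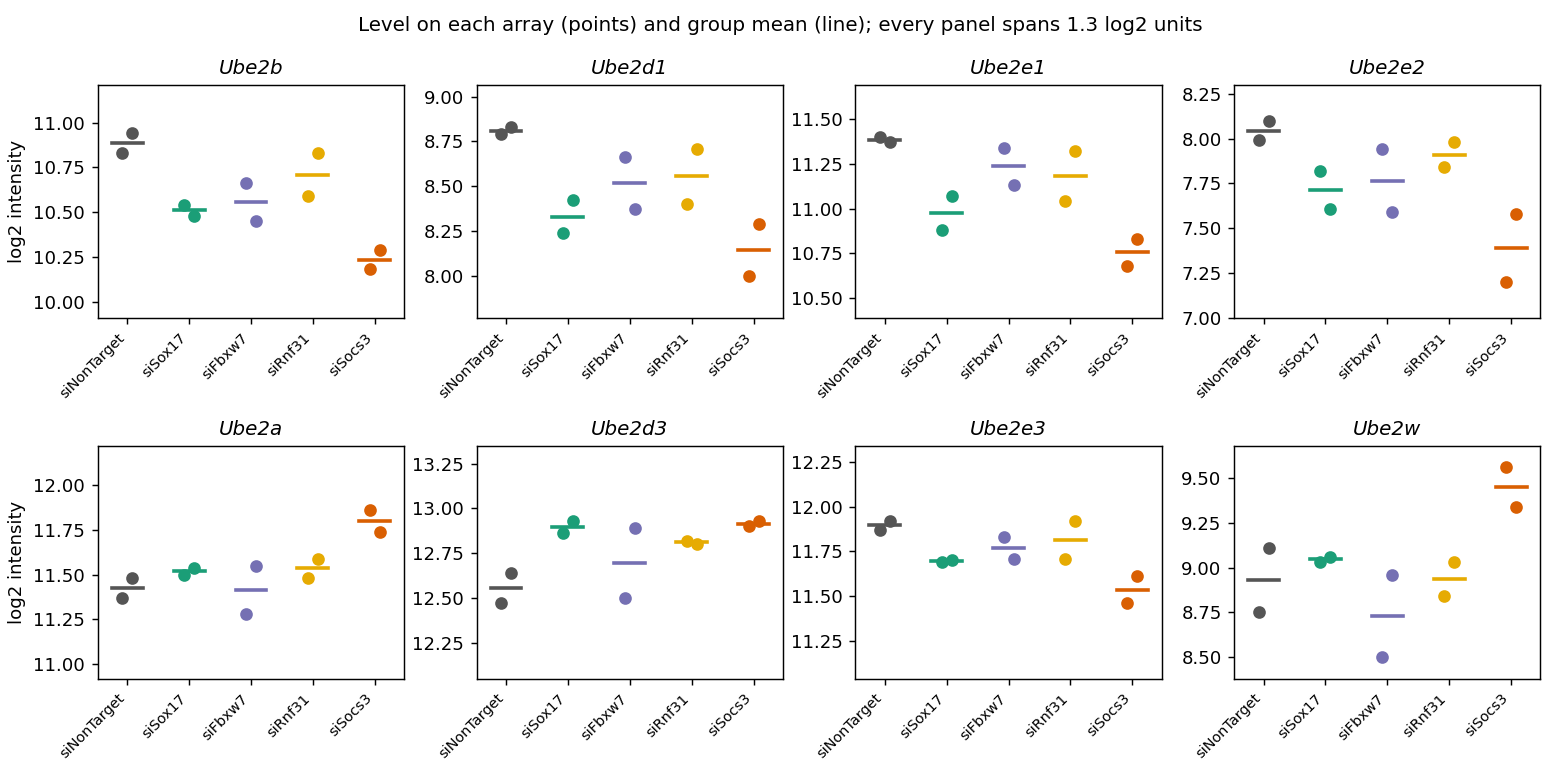
Log2 intensity of 8 E2 genes on each of the 10 arrays (points, 2 per siRNA group) with the group mean (line); every panel spans the same range. The siSocs3 points are the lowest in the panels of Ube2b, Ube2e1, Ube2e2 and Ube2e3 and the highest in those of Ube2a and Ube2w, and in the Ube2d1 panel they overlap the siSox17 points.

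Differences beyond 0.5 in size were seen for 5 members in siSocs3 (13.4% of all genes) and for 0 in siSox17, siFbxw7 and siRnf31 (8.78%, 2.89% and 3.17% of all genes). The calls rested on few arrays. Without siNonTarget replicate 1, siNonTarget replicate 2 or siSocs3 replicate 1, 0 members passed in limma, and 1.72%, 6.13% and 0.346% of all genes did. At an unadjusted p under 0.05 there were 6, 14 and 5 members in these fits (20%, 25.3% and 15.8% of all genes), and 15 with all arrays (26.2% of all genes). Not all of the calls held without siSocs3 replicate 2 or without either siSox17 array, and fewer of all genes passed in these fits too. The log2 estimates themselves stayed between −0.59 and −0.70 for Ube2b, −0.52 and −0.81 for Ube2d1, −0.56 and −0.71 for Ube2e1, and −0.47 and −0.85 for Ube2e2 when single arrays were left out.

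Ube2d1 and Ube2e2 have a single probe set. For Ube2b the next brightest probe sets gave −0.51 (limma adjusted p = 0.0872) and −0.27 (0.438), and the dimmest gave 0.17 (0.882). The other probe set of Ube2e1 is dim, at a mean log2 of 5.46, and gave −0.20.

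The paralogs of the 4 members that fell gave estimates on both sides of 0, and none passed. Ube2a, which encodes RAD6A, read 11.86 and 11.74 on the siSocs3 arrays against 11.37 and 11.48 on the controls. Its estimate was 0.37 ± 0.12 in siSocs3 (95% interval 0.11 to 0.64, limma adjusted p = 0.0793), and it did not pass. Its other probe set gave 0.02. Centring each array on its median moved every gene of this contrast up by 0.09, which took Ube2a to 0.46 and just past the threshold (limma adjusted p = 0.0487). The same shift took Ube2b, Ube2d1, Ube2e1 and Ube2e2 to −0.56, −0.57, −0.54 and −0.57, all still past it (0.0233 to 0.0459). In the Ube2d family, Ube2d2a was −0.04 ± 0.11 in siSocs3 and Ube2d3 was 0.36 ± 0.13 (limma adjusted p = 0.854 and 0.12). The other probe sets of Ube2d2a gave −0.21, −0.34, −0.36 and 0.11 in siSocs3, and none passed. Ube2d3 read 12.90 and 12.93 in siSocs3, 12.86 and 12.93 in siSox17, 12.50 and 12.89 in siFbxw7, 12.82 and 12.80 in siRnf31, and 12.47 and 12.64 in siNonTarget. It had the highest estimate of all members in siSox17 (0.34 ± 0.13, limma adjusted p = 0.235) and in siRnf31 (0.26 ± 0.13, 0.778), and passed in neither. Its direction depends on the probe set: of its 6 others in siSocs3, 2 gave 0.23 and 0.43 and 4 gave values from −0.12 to −0.36. Ube2d2b, a relative of Ube2d2a, was dim, between 2.67 and 3.24 on every array.

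**Figure D2:**
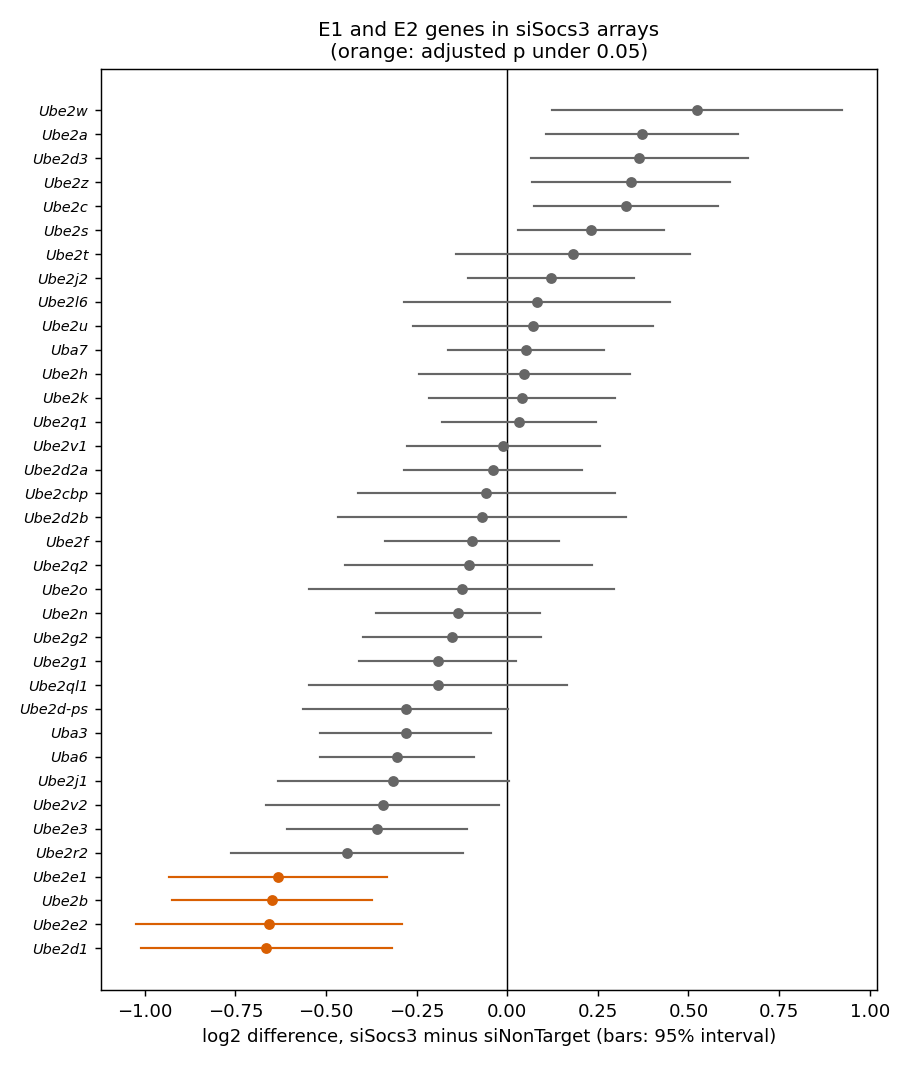
Log2 difference of siSocs3 minus siNonTarget for each of the 36 members (points) with its 95% interval (bars), sorted by size; orange marks the 4 genes past the threshold. Ube2d1, Ube2e2, Ube2b and Ube2e1 stand apart at the bottom, at −0.66 to −0.63, followed by Ube2r2 at −0.44.

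Among the E2s of DNA repair and of chains that do not lead to degradation, Ube2b was the only 1 of 6 called in siSocs3. Over all genes 9.26% were called, so 1 of 6 cannot be told from the background. Ube2n, whose product builds signalling chains with a Ube2v partner, read 10.41 and 10.61 in siSocs3 and 10.66 and 10.62 in siNonTarget (estimate −0.14 ± 0.10, limma adjusted p = 0.427). The other probe set of Ube2n gave −0.41 (limma adjusted p = 0.338). The partner genes Ube2v1 and Ube2v2, whose products lack the active-site cysteine, were −0.01 ± 0.12 and −0.34 ± 0.14 (limma adjusted p = 0.966 and 0.165). Ube2t, the E2 of the Fanconi anaemia pathway, read 10.14 and 9.90 in siSocs3, 9.97 and 9.71 in siNonTarget, 9.66 and 9.53 in siSox17, 9.74 and 9.50 in siFbxw7, and 9.63 and 9.80 in siRnf31. Its siSocs3 arrays overlapped the controls (estimate 0.18 ± 0.14) and lay above the siSox17 arrays by 0.43 ± 0.14 (limma adjusted p = 0.164). Of 16 measured genes of the Fanconi and post-replication repair list, 0 passed in siSocs3, with a median of 0.02. At an unadjusted p under 0.05 in limma there was 1 gene, beside 26.2% of all genes.

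The mitotic E2s were read at high levels. Ube2c starts and Ube2s extends the chains that the anaphase-promoting complex builds on mitotic proteins. Ube2c read 12.92 and 12.89 in siSocs3 and 12.52 and 12.64 in siNonTarget. Ube2s read 13.00 and 12.99 in siSocs3 and 12.75 and 12.77 in siNonTarget. For both, the siSocs3 arrays were the highest of the 10, and neither estimate passed: 0.33 ± 0.11 for Ube2c (limma adjusted p = 0.101) and 0.23 ± 0.09 for Ube2s (0.138). Both passed with a trended and robust prior (limma adjusted p = 0.0471 and 0.0406). On the mitotic list, 1 of 18 measured genes rose in siSocs3 and 0 fell, beside 3.59% and 5.66% of all genes, with a median of 0.06. The gene was Pttg1, the securin that the anaphase-promoting complex destroys, which rose by 1.25 ± 0.16 (limma adjusted p = 0.00542; 0.0706 without siSocs3 replicate 1). It was also higher in siSocs3 than in siSox17, siFbxw7 and siRnf31, by 1.73, 1.78 and 1.29 (limma adjusted p = 0.00158, 0.00185 and 0.0092). Mki67, a marker of dividing cells, was −0.29 ± 0.19 and did not pass.

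Of the E2s of ER-associated degradation and of chains that lead to the proteasome, 0 of 6 passed in siSocs3. Ube2r2 was the 1 with an unadjusted p under 0.05 in limma. Over all genes 9.26% passed and 26.2% had such a p, so counts among 6 genes cannot be told from the background. Ube2r2, a relative of the SCF partner Cdc34, read 10.43 and 10.70 in siSocs3 and 11.10 and 10.93 in siNonTarget (−0.44 ± 0.14, limma adjusted p = 0.0834). Ube2j1 encodes an E2 anchored in the ER membrane. It read 8.23 and 8.34 in siSocs3, 8.64 and 8.55 in siNonTarget, 8.37 and 8.71 in siSox17, 8.68 and 8.56 in siFbxw7, and 8.50 and 8.78 in siRnf31. The siSocs3 arrays lay below all others, and the estimate of −0.31 ± 0.14 did not pass (limma adjusted p = 0.196). Ube2g1, Ube2g2 and Ube2j2, whose products also serve degradation at the ER, were −0.19 ± 0.10, −0.15 ± 0.11 and 0.12 ± 0.10, and Ube2k, which builds lysine-48 chains, was 0.04 ± 0.11. Other probe sets gave −0.61 for Ube2g1 (limma adjusted p = 0.0747), 0.15 for Ube2g2, −0.01 for Ube2j2 and −0.45 to 0.12 for Ube2k.

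Testing every probe set alone called 7 members in siSocs3, all lower: the 4 above, Ube2e3, Ube2j1 and Ube2v2. These rest on 7 of the members' 92 probe sets (7.61%), beside 6.9% of all 34958 probe sets in the same fit, and a gene with several probe sets has more chances of a call. The second probe set of Ube2j1 was −0.65 ± 0.12 against siNonTarget (limma adjusted p = 0.0184), −0.65 ± 0.12 against siSox17 (0.034), −0.70 ± 0.12 against siFbxw7 (0.0207) and −0.60 ± 0.12 against siRnf31 (0.0507). The probe sets called for Ube2e3 and Ube2v2, dimmer than the brightest of each gene, gave −0.59 ± 0.15 and −0.60 ± 0.11 against siNonTarget (limma adjusted p = 0.0461 and 0.0194). For Ube2h, an E2 of histones and of the CTLH ligase, the brightest probe set gave 0.05 and the others −0.75, −0.66 and −0.38 (limma adjusted p = 0.0754, 0.0691 and 0.156). Probe sets of a gene can read different transcript ends, and which transcripts these read was not tested.

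**Figure D3:**
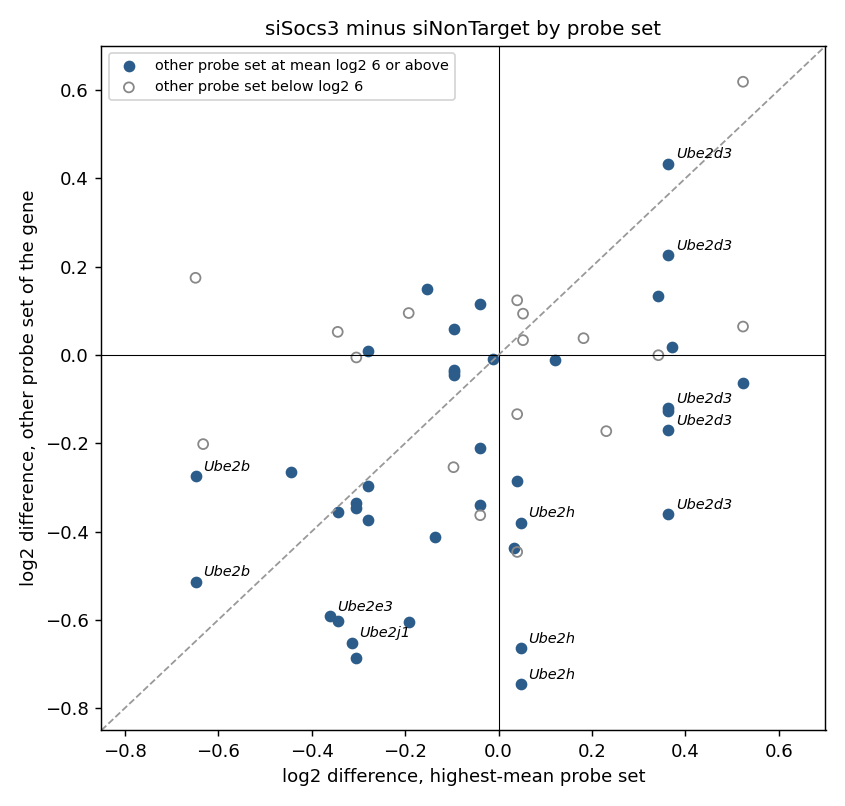
Log2 difference of siSocs3 minus siNonTarget for the other probe sets of a member (vertical axis) against its brightest probe set (horizontal axis); filled points have a mean log2 of at least 6, and the dashed line marks equal values. Of 39 filled points, 24 have the sign of the brightest probe set and 31 lie below 0; filled points of Ube2h and Ube2d3 lie farthest from the line.

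Ube2w, whose product attaches ubiquitin to the N-terminus of substrates, had the highest estimate of all members in siSocs3, and it did not pass. It read 9.56 and 9.34 in siSocs3, 8.75 and 9.11 in siNonTarget, 9.03 and 9.06 in siSox17, 8.50 and 8.96 in siFbxw7, and 8.84 and 9.03 in siRnf31. The siSocs3 arrays were the highest, with an estimate of 0.52 ± 0.18 against siNonTarget (95% interval 0.12 to 0.92, limma adjusted p = 0.0975) and 0.72 ± 0.18 against siFbxw7 (0.063). Its other probe sets gave −0.06, 0.06 and 0.62. Ube2z, whose product is charged by Uba6, read 10.97 and 11.16 in siSocs3 and 10.67 and 10.78 in siNonTarget (0.34 ± 0.12, limma adjusted p = 0.111). Ube2q1 and Ube2q2 were 0.03 ± 0.09 and −0.11 ± 0.15 in siSocs3. The other probe set of Ube2q1 gave −0.44 (limma adjusted p = 0.0691).

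The 3 E1 genes did not pass in any group. Uba6 encodes the second E1 for ubiquitin, which also activates FAT10. It read 10.34 and 10.40 in siSocs3, 10.69 and 10.67 in siNonTarget, 10.52 and 10.57 in siSox17, 10.71 and 10.63 in siFbxw7, and 10.50 and 10.62 in siRnf31. The siSocs3 arrays were the lowest, at −0.30 ± 0.09 against siNonTarget (95% interval −0.52 to −0.09, limma adjusted p = 0.0774). Uba3, the catalytic subunit of the NEDD8 E1, read 10.54 and 10.48 in siSocs3, 10.53 and 10.55 in siRnf31, 10.48 and 10.65 in siSox17, 10.77 and 10.60 in siFbxw7, and 10.78 and 10.79 in siNonTarget. All 8 arrays of targeted siRNA lay below both controls, with estimates of −0.28 ± 0.10 in siSocs3 and −0.25 ± 0.10 in siRnf31 (limma adjusted p = 0.127 and 0.778). Other probe sets of Uba3 gave −0.30 and 0.01 in siSocs3, and −0.14 and −0.02 in siRnf31. Uba7 read between 6.45 and 6.74 on all arrays. Its E2 partner Ube2l6 was dim, 3.87 and 4.09 in siSocs3 against 3.82 and 3.97 in siNonTarget. On the list of interferon-stimulated genes, which holds neither Uba7 nor Ube2l6, 1 of 15 measured genes passed in siSocs3, beside 9.26% of all genes. The antiviral gene Rsad2 rose by 0.51 ± 0.12 from a dim level, 5.35 and 5.41 to 5.90 and 5.86 (limma adjusted p = 0.0323). That call was lost without any 1 array of siNonTarget, siSox17 or siSocs3 (0.0508 to 0.208), and the other probe sets of Rsad2 gave 0.12 and 0.02. Ube2f, the NEDD8 E2, was −0.10 ± 0.11 in siSocs3, and Isg15 was not analysed here.

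In siSox17, siFbxw7 and siRnf31, 0 members passed in limma, and 4, 2 and 1 had an unadjusted p under 0.05. Over all genes the same test called 0.0055% in siSox17 and 0% in the others. At an unadjusted p under 0.05, the share of all genes was 17.3%, 6.45% and 5.87%. The 3 lowest estimates in siSox17 were those of Ube2d1, Ube2e1 and Ube2b, given above. The highest after Ube2d3 were the dim genes Ube2u (4.14 and 4.12 against 3.81 and 4.05) and Ube2ql1 (5.89 and 5.59 against 5.57 and 5.56), at 0.20 ± 0.15 and 0.17 ± 0.16. In siFbxw7 the lowest were Ube2b, Ube2d-ps (7.08 and 6.98 against 7.49 and 7.18, −0.30 ± 0.13) and Ube2d1. The highest in siFbxw7 were Ube2d2b (0.19 ± 0.18), Ube2d3 (0.14 ± 0.13) and Ube2u (0.11 ± 0.15), and the arrays of each overlapped the controls. In siRnf31 the lowest were Ube2o, a combined E2 and E3 (8.09 and 7.83 against 8.45 and 8.02, −0.27 ± 0.19), Ube2d1 and Uba3. The highest in siRnf31 after Ube2d3 were Ube2a (0.11 ± 0.12) and Ube2c (0.09 ± 0.11). None of these estimates passed.

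Separation of the arrays was also uneven. In siSocs3, 17 of 36 members had both arrays below both controls (47.2%, against 26.7% of all genes), and 7 had both above (19.4%, against 30.6%). In siSox17 the counts were 14 below and 7 above (38.9% and 19.4%, against 24.9% and 23.3% of all genes). In siFbxw7 they were 9 and 0 (25% and 0%, against 16.1% and 16.9%), and in siRnf31 10 and 3 (27.8% and 8.33%, against 18.6% and 16.6%). The median member estimate was −0.08 in siSocs3, −0.04 in siSox17, −0.02 in siFbxw7 and −0.04 in siRnf31, beside 0.03, −0.00, 0.00 and −0.00 over all genes. By group mean, siSocs3 held the lowest level for 16 members and the highest for 12, while siNonTarget held the lowest for 2 (Ube2d3 and Ube2z) and the highest for 12. Over all genes siSocs3 was lowest for 26% and highest for 29.6%, and siNonTarget lowest for 25.1% and highest for 24.5%. The 4 comparisons share the siNonTarget arrays, so these counts are not independent of each other.

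**Figure D4:**
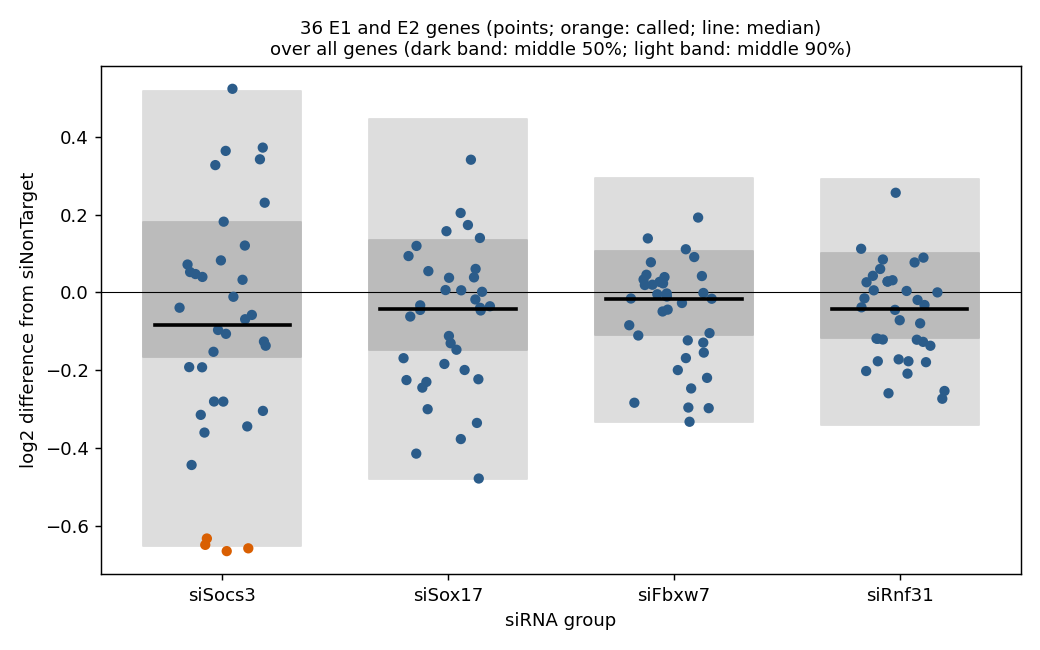
Log2 difference from siNonTarget for the 36 members (points; orange, past the threshold) in each siRNA group, with the members' median (black line) over the middle 50% (dark band) and middle 90% (light band) of all genes. The 4 called members lie at the lower edge of the siSocs3 band, and no member passed in the other groups.

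The estimates that compare siSocs3 directly with the other targeted groups leave out the control arrays, whose spread still enters their standard errors through the shared model. In these comparisons, 0 members passed in limma against siSox17, siFbxw7 or siRnf31, with 5, 15 and 9 at an unadjusted p under 0.05. Over all genes 2.61%, 3.51% and 2.13% passed, and 17.4%, 18.5% and 16.9% had an unadjusted p under 0.05. The estimates of Ube2b were −0.27 ± 0.12, −0.32 ± 0.12 and −0.47 ± 0.12 against siSox17, siFbxw7 and siRnf31 (limma adjusted p = 0.294, 0.206 and 0.0909). Ube2e1 gave −0.22 ± 0.13, −0.48 ± 0.13 and −0.42 ± 0.13 in the same order (limma adjusted p = 0.451, 0.0951 and 0.153). Ube2e2 gave −0.32 ± 0.16, −0.37 ± 0.16 and −0.52 ± 0.16, and Ube2d1 −0.19 ± 0.15, −0.37 ± 0.15 and −0.41 ± 0.15. The falls against siNonTarget are thus not shown to be particular to siSocs3. The 95% interval for Ube2b against siSox17 ran from −0.55 to 0.00.

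Calls among other genes of the pathway are given beside the shares of all genes in siSocs3, 3.59% higher and 5.66% lower. On lists of this size, counts of 0 or 1 cannot be told from these shares. Of 14 measured ubiquitin and ubiquitin-like genes, 1 rose and 0 fell, with a median of 0.03. Gabarapl2, an autophagy modifier of the ATG8 family, read 13.02 and 12.78 in siSocs3, 11.76 and 11.81 in siNonTarget, and between 11.82 and 12.56 on the other arrays. It rose by 1.12 ± 0.16 (limma adjusted p = 0.00773; 0.0937 without siSocs3 replicate 1) and was also higher than in siFbxw7, by 0.89 ± 0.16 (0.0215). Among 12 measured E1 and E2 genes with other symbols, 1 rose and 0 fell, with a median of 0.02. Mocs3, an E1-like enzyme for URM1, read 7.76 and 7.85 in siSocs3 and 7.06 and 7.28 in siNonTarget, a rise of 0.64 ± 0.15 (limma adjusted p = 0.0343). That call was lost without any 1 array of siNonTarget, siSox17 or siSocs3 (0.0514 to 0.173), and the other probe set of Mocs3 gave 0.09. Against siNonTarget, 0 genes of either list passed in the other groups in limma. At an unadjusted p under 0.05 there were 2, 0 and 1 ubiquitin-like genes and 3, 0 and 1 E1 and E2 genes in siSox17, siFbxw7 and siRnf31. The shares of all genes were 17.3%, 6.45% and 5.87%.

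The arrays themselves differ in ways that touch these results. The targeted transcripts do not check the labels: Socs3 was 0.44 ± 0.24 in siSocs3, Sox17 0.03 ± 0.53 in siSox17, Fbxw7 −0.25 ± 0.15 in siFbxw7 and Rnf31 −0.40 ± 0.17 in siRnf31, none past the threshold, so every direction rests on the labels. The control probe sets for the 3′ end of actin read higher than those for its 5′ end by 0.50 (log2) in siNonTarget replicate 1, by 0.60 in siFbxw7 replicate 1, and by 0.21 to 0.29 elsewhere; degraded RNA widens this gap. Without both of these arrays, 1 member, Ube2b, passed in siSocs3, and the estimates of Ube2d1, Ube2e1 and Ube2e2 were −0.68, −0.62 and −0.71. Array medians lay between 46.39 and 47.95 intensity units. No member differed 2-fold between replicates of a group (largest difference 0.51, Ube2cbp in siSox17). Among all 18194 genes such differences were most frequent in the control pair (220 genes), then siFbxw7 (208), and rarest in siSocs3 (13). These shares are small, so a count of 0 among 36 members cannot be told from them. By correlation, siNonTarget replicate 1 was closest to siFbxw7 replicate 1, and siNonTarget replicate 2 to siRnf31 replicate 2. The siSocs3 replicates were closest to each other. Markers of undifferentiated cells and of neural cells also moved with siSocs3: 5 of 8 rose and 4 of 6 fell, beside 3.59% and 5.66% of all genes. The summed intensity of the first list was 44305 to 47160 in siSocs3 and 26006 to 29070 in siNonTarget, and that of the second 666 to 869 and 1527 to 1963. The sums of the first list in siSox17, siFbxw7 and siRnf31 ran from 28052 to 38607, and those of the second from 1180 to 1655. Fibroblast markers summed to 469 to 552 in siSocs3 and 1130 to 1153 in siNonTarget, with 3 of 6 genes among the dimmest 30% of genes. Only the estimates of Col1a2 and Twist1 lay below 0, the other 4 lay above, and the median was 0.00. Of the fibroblast, endoderm and trophoblast lists, 2, 1 and 0 of 6 genes fell in siSocs3 and 0 rose. Endoderm markers summed to 1318 to 1472 and 1501 to 1779, and trophoblast markers to 12924 to 15120 and 3570 to 13457. Of the endoderm estimates in siSocs3, 4 lay above 0 and 2 below. The part of these shifts in the member changes was not tested, and in bulk arrays fewer cells of a type and less RNA per cell cannot be told apart.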

How the data were processed

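The deposited intensity of each probe set on each array was produced by the authors with RMA, per the submitters' processing notes; no version or later step is stated there. RMA gives arrays like distributions, which hides a shift common to all genes and compresses dim ones. The values are on a linear scale, and their log2 was used. There were 45101 probe sets: 34958 with 1 gene symbol, 932 with several, and 9211 unnamed here.

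A single model of the 5 groups was fitted in limma 3.58.1 (R 4.3.3) to all 18194 genes, with 5 residual and 3.98 prior degrees of freedom. P-values are two-sided and were adjusted by Benjamini and Hochberg's method inside each of 7 contrasts and a threshold of 0.05. Errors are the model's standard errors. Exact permutation of 2 against 2 arrays cannot reach 0.05, and precision is limited by the array number. The fit was also run on simulated data with independent noise, which lack any difference shared between arrays, and no result here rests on that run. Promoters are from RefSeq (GRCm38.p6); figures used matplotlib 3.10.9.

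The members, lists and tests were chosen with earlier results of these data known. Genes named were members past the threshold, the 3 highest and 3 lowest estimates of each contrast with siNonTarget, a fixed set of E1 and E2 genes, and list genes past the threshold plus Isg15 and Mki67. Some genes of the fixed sets are not reported here. Members named after their values were seen were Ube2e3, Ube2d2a, Ube2r2, Ube2v1, Ube2v2, Ube2g1, Ube2g2, Ube2j1, Ube2j2, Ube2k, Ube2h, Ube2q1, Ube2q2, Ube2z, Ube2f, Ube2cbp and Uba7. Alternatives were quantile normalization, a replicate block, median centring, fits of only the 2 groups compared, dim genes left out, a trended and robust prior, other probe sets, and arrays left out.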

Additional observations from a re-analysis of the deposited data

How the results depend on the processing

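Of 683 alternatives run for 35 named gene estimates, 603 kept direction and side of the threshold, 53 lost a call, 4 gained one and 23 turned the sign; the cause was not tested. An estimate without a call that stayed without one counts among the 603. Only Ube2b, Ube2d1, Ube2e1, Ube2e2, Gabarapl2, Mocs3, Pttg1 and Rsad2 in siSocs3 had a call to lose. The 53 losses all fall on these genes, so the 603 do not measure how stable the calls are. For siSocs3 against siNonTarget, 4 members passed. The count was 8 with a trended and robust prior (9.81% of all genes, against 9.26% in the main analysis), 7 with every probe set alone (6.9% of all probe sets), 1 without both arrays of high actin difference (4.72%), and 0 to 4 with single arrays left out (0.346% to 11.4%). Averaging all probe sets of each gene also gave 4 (6.93% of all genes). Of the main calls it kept Ube2d1 and Ube2e2 and lost Ube2b and Ube2e1. Against siSox17, every probe set alone gave 1 (Ube2j1; 1.7% of all probe sets). Against siFbxw7, the trended prior gave 1 (Ube2s, 3.74% of all genes) and every probe set alone 1 (Ube2j1, 2.61% of all probe sets). Leaving out siFbxw7 replicate 2 added a call of Ube2w, and more of all genes passed in that fit too. The other 4 contrasts gave 0 throughout. With 2 arrays per group, at most 1.4% of the genes tested passed in siSox17 against siNonTarget and 2.62% in siSocs3 against siRnf31. That share was 0% in siFbxw7 and siRnf31 against siNonTarget, so counts of 0 are near the background.

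Replicate numbers do not mark a shared source in the labels, and replicate differences of the groups correlated between −0.26 and 0.42. With the replicate number as a block, 3 members passed in siSocs3 (Ube2e2 was lost, limma adjusted p = 0.0564), and 1517 genes in all against 1684. Median centring moved the median of all genes by at most 0.09.

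Signs turned mostly with the probe set. In siSocs3 these were Ube2b (0.17), Ube2w (−0.064), Ube2s (−0.17) and Ube2d3 (−0.12, −0.17, −0.13 and −0.36). In siSox17 they were Ube2b (0.13 and 0.13) and Ube2d3 (−0.017), in siFbxw7 Ube2b (0.014) and Ube2d3 (−0.044 and −0.032), and in siRnf31 Ube2d3 (−0.13, −0.20, −0.11 and −0.26). Ube2u in siFbxw7 was −0.21 without both arrays of high actin difference. With single arrays left out, siFbxw7 estimates ran from −0.039 to 0.42 for Ube2d2b, −0.053 to 0.33 for Ube2d3 and −0.086 to 0.31 for Ube2u, and that of Ube2l6 in siSocs3 from −0.025 to 0.19.

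With 2 arrays a group, standard errors of the members are 0.09 to 0.19 on the log2 scale. Members near background (Ube2d2b, Ube2l6 and Ube2u, among the dimmest 30% of genes) cannot show small changes.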
